A study of Arabidopsis thaliana with 6 samples.

Results

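The chloroplast genome of Arabidopsis thaliana, ecotype Col0, was followed in seedlings through 69 of its genes on Affymetrix arrays. The members are every gene that the platform annotation, joined to the TAIR10.1 gene table, places on the chloroplast genome and measures with a probe set listing that gene alone. All 69 code for proteins, out of 85 protein-coding chloroplast loci in that table, and each had exactly 1 probe set among the 22746 probe sets tested. By the complexes their products belong to, they comprise 5 genes of photosystem I, 15 of photosystem II, 6 of the cytochrome b6f complex, 10 of the NDH complex, 6 of the ATP synthase, 15 of the ribosome, 4 of the RNA polymerase and 8 others.

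Wild-type seedlings (WT) were set against seedlings that overexpress TOC1 (TOC1-ox), an evening-phased component of the plant circadian clock, with 3 arrays in each group. Both groups had grown for 12 days on MS3 medium with 12 h of light and 12 h of darkness a day, and were collected at zeitgeber time 15, in the dark. The series text calls the arrays biological replicates. The sources used here give neither the promoter that drives TOC1 nor the number of transgenic lines, and the level of TOC1 itself is not analysed here.

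The chloroplast genome keeps a small set of genes from the cyanobacterial ancestor of the plastid: core subunits of the photosynthetic complexes, the large subunit of rubisco, and part of the machinery that transcribes and translates them. Most are transcribed in polycistronic units by a bacterial-type polymerase, whose core subunits are plastid-encoded and whose sigma factors come from the nucleus, while a phage-type nuclear-encoded polymerase serves other promoters, that of rpoB among them. The units are then cut, spliced and edited by nuclear-encoded proteins. Plastid mRNAs largely lack the stable poly(A) tails of nuclear mRNAs, and the standard Affymetrix labelling starts from an oligo(dT) primer, so a value here need not follow a transcript's total abundance. How far that bears on these values was not tested. Neither can fewer plastids, fewer green cells and less RNA per plastid be told apart in whole seedlings.

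All values are log2 values as deposited, and differences are TOC1-ox minus WT on that scale unless a fold is stated. When 3 values of a group are listed, they are those of replicates 1, 2 and 3 in that order. Mean signals of the members ran from 5.53 to 15.04, so that every member cleared a mean of 4 and all but ndhF a mean of 6. The probe sets have different probes, so levels are compared between arrays and not between genes.

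The arrays numbered 3 stood apart at these genes in both genotypes. The median over the 69 members was 11.51, 11.52 and 12.30 in WT and 11.16, 11.42 and 12.35 in TOC1-ox. Replicate 3 was therefore the highest array of either group, and the group means of these medians, 11.77 ± 0.45 in the wild type and 11.64 ± 0.63 in the overexpressor (SD over 3 arrays), differed by less than their spread. In 43 of the 69 members (62.3%) replicate 3 was the highest array of both groups, a pattern found at 13.1% of all tested probe sets and at 17.6% of the 12603 probe sets at least as bright as the dimmest member. Taken singly, WT replicate 3 was the highest WT array at 49 members, against 26.3% of all tested probe sets, and TOC1-ox replicate 3 the highest TOC1-ox array at 48 (69.6%), against 50.1%. TOC1-ox replicate 3 thus stood apart from its group over the whole array as well. So did WT replicate 3 by another measure, limma's weights for the agreement of each array over all tested probe sets. These were 0.14 for WT replicate 3, 0.30 for TOC1-ox replicate 3 and 0.82 to 4.41 for the other arrays. In 38 members both arrays numbered 3 lay above all 4 others, against 7.31% of all tested probe sets. In 8 members replicate 3 was instead the lowest array of both groups (18.7% of all tested probe sets). Medians over all tested probe sets lay between 6.17 and 6.27 on the 6 arrays. The deposited values were normalized by quantiles, which holds these medians close together. They therefore cannot show whether replicate 3 differs over the whole array.

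Other measures moved only in part with the number of the array. The 24 probe sets of bacterial transcripts that are spiked in to control the labelling had medians of 7.59 (WT) and 7.01 (TOC1-ox) on the arrays numbered 3, and of 2.81 to 4.84 on the other arrays. The control probe set for cytosolic 25S ribosomal RNA read 8.16, 7.71 and 9.43 in WT and 8.42, 9.10 and 9.44 in TOC1-ox. That for 5S ribosomal RNA did not follow it, with 5.37, 6.36 and 6.50 in WT and 6.77, 7.84 and 5.48 in TOC1-ox. Replicate 3 was thus the lowest TOC1-ox array for 5S. Over 16 mitochondrial genes, the other organelle genome, the median was 4.45, 4.44 and 4.88 in WT and 4.51, 4.91 and 4.91 in TOC1-ox, near the dim end of the scale. A sign of RNA integrity, the mean 3′ minus 5′ signal over 6 control pairs, lay between 1.25 and 1.43 on all arrays and was lowest on both arrays numbered 3. The part of these measures in the chloroplast values was not tested. Of the tissue marker lists, 3 of 14 names were measured for green tissue (RCA, PRK and SBPASE, with values of 11.71 to 14.67 on all arrays). For root 1 gene was measured, EXPA7, which is listed as both EXPA7 and EXP7 among the 12 names. It read 5.45 to 5.95 in WT and 6.31 to 6.78 in TOC1-ox (limma adjusted p = 0.129). For seed 1 of 15 names was measured, OLEO3. It read 3.112 to 3.595 in WT and 3.070 to 3.109 in TOC1-ox (limma adjusted p = 0.465). The 3 green markers did not move together. RCA, which encodes rubisco activase, read 13.14, 14.07 and 13.93 in WT and 13.74, 14.09 and 14.67 in TOC1-ox (difference 0.45). SBPASE and PRK, for enzymes of the Calvin cycle, had differences of the other sign, -0.55 and -0.20. SBPASE read 12.81, 12.67 and 12.46 in WT and 11.82, 11.71 and 12.76 in TOC1-ox, and PRK read 13.19, 13.05 and 12.70 in WT and 12.94, 12.82 and 12.59 in TOC1-ox, lowest in replicate 3 of both groups. None of the 3 passed (limma adjusted p = 0.488 to 0.678).

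**Figure D1:**
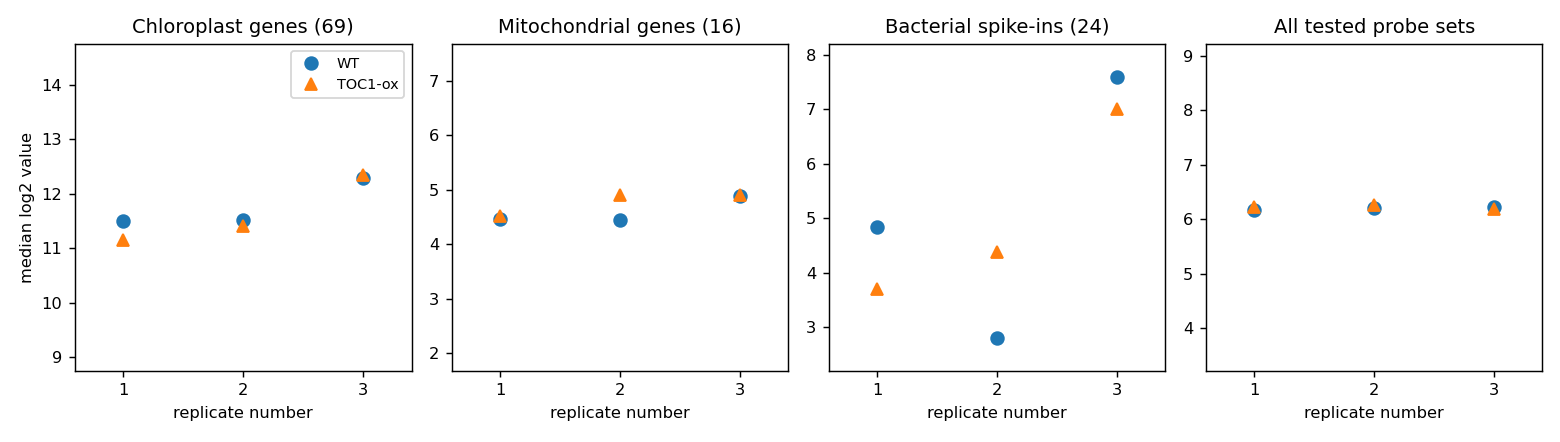
Median log2 value (vertical axis, the same span of log2 units in every panel) on each array against its replicate number, for chloroplast genes, mitochondrial genes, bacterial spike-in probe sets and all tested probe sets. Circles are WT and triangles TOC1-ox. The chloroplast medians are 12.30 and 12.35 on the arrays numbered 3 and 11.16 to 11.52 on the others. The median of all tested probe sets stays between 6.17 and 6.27, held close by the quantile normalization of the deposited values.

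Between the genotypes, none of the 69 genes passed the test. In limma's fit over all 22746 probe sets, 0 members had an adjusted p under 0.05, where 1.78% of all tested probe sets did. At an unadjusted p under 0.05, limma gave 4 members (5.8%), namely petD, rpoB, rpl20 and rpl33, against 16.4% of all tested probe sets. The 3 values of each group did not overlap at 5 members (7.25%): petD and rpoB were higher in TOC1-ox, and psbM, rpl33 and rps3 were lower, against 20.1% without overlap over all tested probe sets. The median difference over the members was 0.03, with 39 positive and 30 negative, and the median over all tested probe sets was -0.02. With 1 array left out the members' median ran from -0.12 (WT replicate 2) to 0.22 (WT replicate 3) and was also negative, at -0.12, without TOC1-ox replicate 3, so its sign rests on single arrays. Split by direction, the 2 members higher without overlap stand beside 9.27% of all tested probe sets and the 3 lower ones beside 10.8%. In 67 members (97.1%) the difference was under 2-fold, as at 92.5% of all tested probe sets.

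These differences were measured with a wide error. The median within-group SD of the members was 0.48, compared with 0.27 over the 12603 probe sets at least as bright as the dimmest member, and limma's 95% confidence interval reached a median of 0.90 to either side of a member's difference. A missed threshold therefore leaves differences of nearly 2-fold within the interval of the typical member. In 57 members (82.6%) the mean of the arrays numbered 3 lay further from the mean of the other 4 than the genotypes lay from each other, which held at 58.1% of all tested probe sets. The difference had 1 sign between all 3 pairs of same-numbered arrays at 24 members (34.8%; 12 positive, 12 negative), as at 35.5% of all tested probe sets. Between the arrays numbered 1, 2 and 3, with 1 array in each group, the median difference was -0.07, 0.27 and -0.03, with 29, 44 and 32 of the 69 members positive.

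Leaving out arrays or rescaling them brought single members past the threshold, each time at a share below that of all tested probe sets. Without TOC1-ox replicate 3, 1 member (rpl33) had an adjusted p under 0.05 by limma, beside 13.0% of all tested probe sets, and without WT replicate 3 there were 0 beside 0.827%. Among the arrays numbered 1 and 2 only there were 3 (rpl33, rps19 and ndhH) beside 9.68%, and with a batch term for the arrays numbered 3 there was 1 (rpl33) beside 2.5%. Weighting the arrays by their agreement gave 8 members beside 27.2%. A lower bound on the mean of 4 or 6 gave 1 (petD) beside 5.87% and 5.43%, as did centring on the chloroplast median, beside 3.09%. After that centring limma's fit used the same variance for every probe set, so its adjusted p is unlike that of the other settings. Quantile normalization gave 0 beside 1.09%. With the replicate number as a block, 11 members had an unadjusted p under 0.05 by limma, beside 19.0%.

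**Figure D2:**
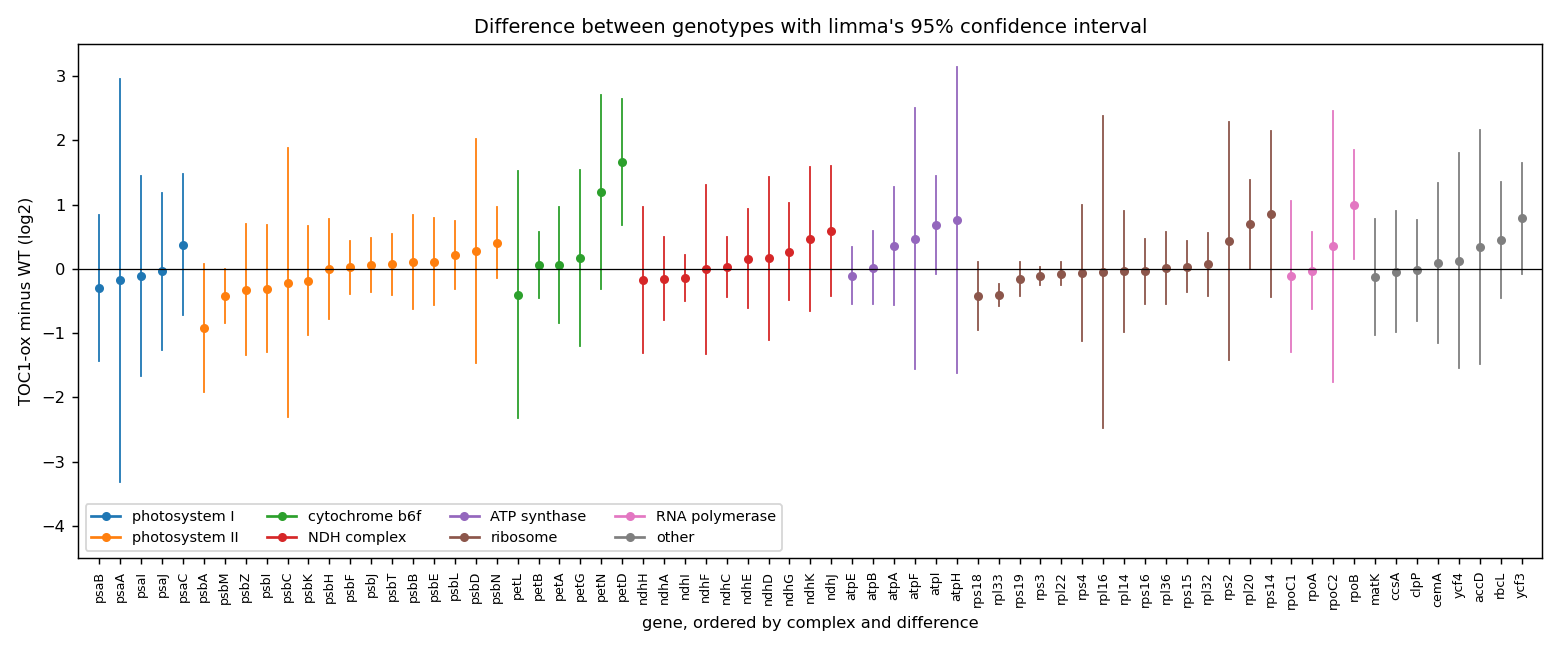
Difference between TOC1-ox and WT (log2, vertical axis) for each of the 69 chloroplast genes, ordered by complex and size of difference, with limma's 95% confidence interval as a bar. Points lie between -0.92 (psbA) and 1.67 (petD), and only the intervals of petD, rpoB, rpl20 and rpl33 leave out 0.

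Photosystem I, which passes electrons to ferredoxin, gave the same picture in its 5 measured genes: 0 passed, 4 differences were negative, 1 was positive, and their median was -0.11. That median turned positive when TOC1-ox replicate 1 (0.37), TOC1-ox replicate 2 (0.05) or WT replicate 3 (0.21) was left out, and reached -0.70 without TOC1-ox replicate 3, -0.29 without WT replicate 2 and -0.25 without WT replicate 1. psaA and psaB encode the paired core proteins that hold the reaction centre. psaA read 11.51, 10.04 and 13.45 in WT and 10.12, 11.05 and 13.31 in TOC1-ox, a difference of -0.17 with an interval from -3.31 to 2.96. Its replicate 3 lay 2.67 above the mean of the other 2 arrays in WT and 2.72 above in TOC1-ox, the largest such shift of all 69 members when both groups are averaged. psaB, its neighbour in the same transcription unit, read 13.98, 13.68 and 14.62 in WT and 13.23, 13.56 and 14.59 in TOC1-ox (difference -0.30, limma adjusted p = 0.865). The groups overlapped at both genes, and replicate 3 was highest in each.

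psaC, which encodes the subunit with the terminal iron-sulfur clusters, had the one positive difference of this group, 0.38, from 9.61, 10.06 and 10.94 in WT to 10.04, 10.71 and 10.99 in TOC1-ox (limma adjusted p = 0.797). The small subunit genes psaI and psaJ differed by -0.11 and -0.04. psaJ read 13.37, 14.49 and 14.27 in WT and 13.20, 14.38 and 14.44 in TOC1-ox, so that replicate 1 was the lowest array of both groups there. Replicate 3 was the highest TOC1-ox array in all 5 genes of photosystem I and the highest WT array in all but psaJ.

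Photosystem II, the water-splitting complex, was the largest photosynthetic group with 15 measured genes. Of these, 0 passed, 9 differences were positive and 6 negative, and the median was 0.03, with either sign when 1 array was left out (-0.14 without TOC1-ox replicate 3 to 0.09 without TOC1-ox replicate 1). psbA encodes D1, the reaction-centre protein that is replaced continually in the light, and it had the most negative difference of all 69 members. It read 13.42, 13.11 and 12.30 in WT and 12.56, 11.84 and 11.67 in TOC1-ox, 1.89-fold lower in TOC1-ox (difference -0.92 ± 0.39, standard error, n = 3 each, interval -1.91 to 0.08, limma adjusted p = 0.342). WT replicate 3 lay below TOC1-ox replicate 1, so the groups overlapped, and unlike most members psbA was lowest in replicate 3 of both genotypes. Its difference was -0.62 between the arrays numbered 3, and -0.86 and -1.26 between those numbered 1 and 2.

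psbM, a small subunit where the monomers of the photosystem II dimer meet, showed no overlap. It read 14.30, 14.49 and 14.91 in WT and 14.15, 14.18 and 14.12 in TOC1-ox (difference -0.42 ± 0.16, standard error, limma adjusted p = 0.308). The TOC1-ox values lay closer together, with an SD of 0.03, than the WT values, with an SD of 0.31. psbN, whose product assists assembly of the complex rather than forming part of it, had the most positive difference of the group: 7.60, 7.32 and 7.08 in WT against 7.78, 8.04 and 7.40 in TOC1-ox (difference 0.41, limma adjusted p = 0.454). Its groups overlapped.

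The genes of the other core proteins varied more with the array than with the genotype. psbD, which encodes the D2 partner of D1, read 9.28, 9.12 and 10.06 in WT and 8.81, 9.36 and 11.13 in TOC1-ox (difference 0.28, interval -1.46 to 2.02). psbC, which encodes the inner antenna protein CP43 and overlaps psbD on the genome, read 10.36, 10.74 and 11.60 in WT and 9.86, 9.85 and 12.35 in TOC1-ox (difference -0.21). In both, TOC1-ox replicate 3 was the highest of the 6 arrays. psbB, which encodes the other inner antenna protein CP47, went the other way with the array: 10.75, 11.13 and 10.11 in WT and 10.66, 10.98 and 10.65 in TOC1-ox (difference 0.10). psbE and psbF, for the subunits of cytochrome b559, differed by 0.11 and 0.03. Among the remaining 7 genes of photosystem II the differences ran from -0.32 (psbZ) to 0.22 (psbL).

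**Figure D3:**
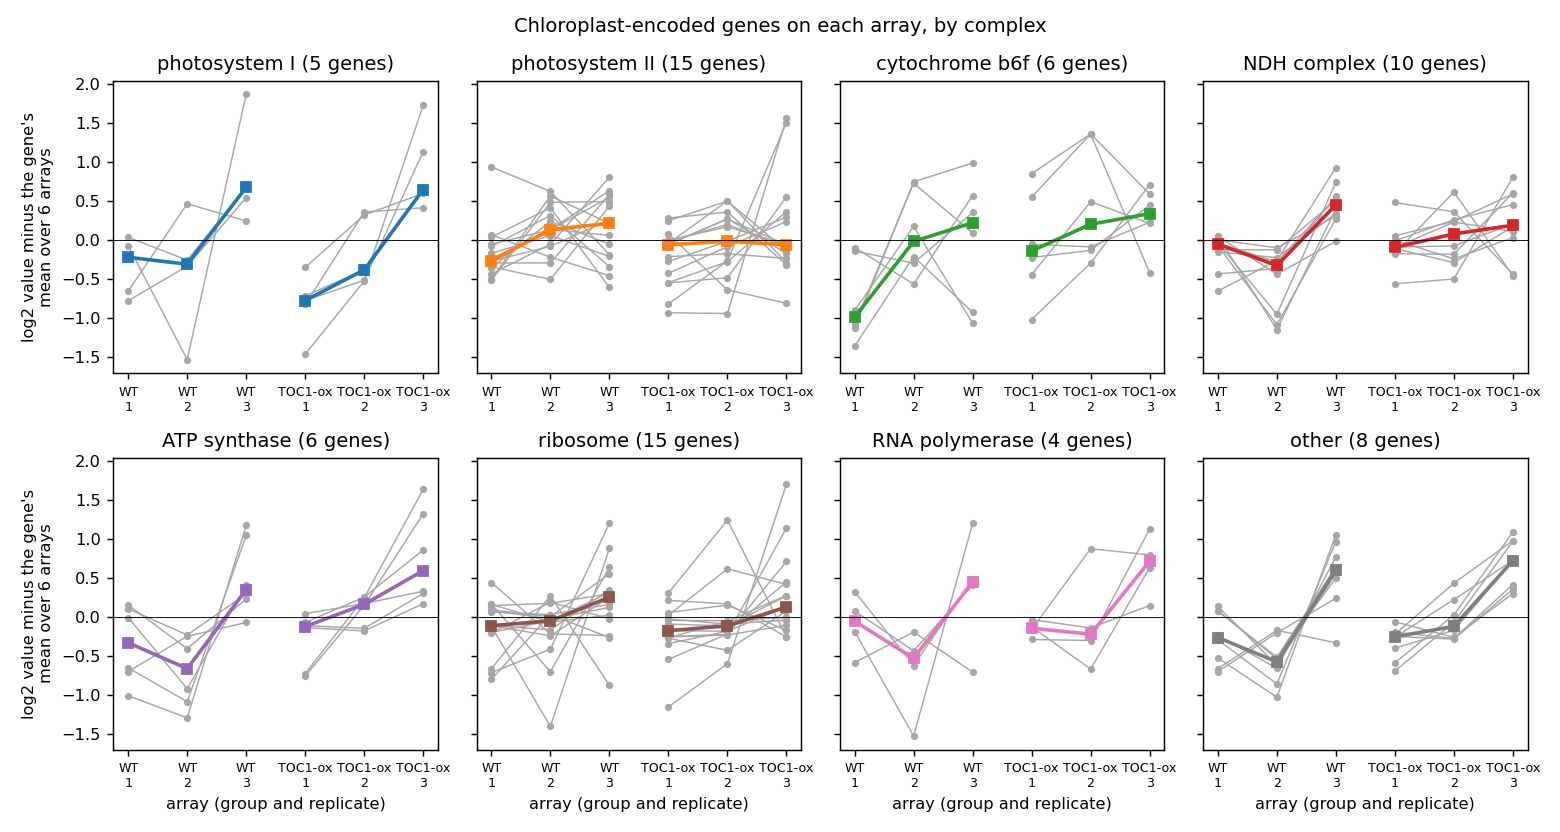
Log2 value of each chloroplast gene minus its own mean over the 6 arrays (vertical axis), by array, in 1 panel per complex. Grey points linked by lines within a group are single genes, and coloured squares are the median of the panel. Replicate 3 is the highest array of both groups for all 6 ATP synthase genes and for 4 of 5 photosystem I genes, but for only 5 of 15 photosystem II genes.

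The cytochrome b6f complex, which carries electrons between the photosystems, held the largest difference of the 69 members. Of its 6 measured genes 0 passed, 5 differences were positive, and the median was 0.12 (0.01 without WT replicate 1 to 0.31 without TOC1-ox replicate 1). petD, for subunit IV, read 5.38, 6.52 and 5.81 in WT and 7.29, 8.10 and 7.33 in TOC1-ox. The groups did not overlap, with TOC1-ox above WT on every array, and the difference of 1.67 ± 0.38 (standard error, n = 3 each, 3.18-fold, interval 0.69 to 2.65) had a limma adjusted p of 0.121. It was 1.91 and 1.57 between the arrays numbered 1 and 2 and 1.52 between those numbered 3. With probe sets of a mean under 4 or under 6 left out before adjustment, petD passed (limma adjusted p = 0.0444 and 0.0412, and 0.0276 to 0.291 over all alternatives). The lowest value came after centring on the chloroplast median, where limma's fit used the same variance for every probe set.

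petB, for cytochrome b6, lies directly before petD in the same transcription unit and did not share this difference in size. It read 14.24, 14.09 and 14.74 in WT and 14.33, 14.30 and 14.61 in TOC1-ox (difference 0.06, interval -0.45 to 0.57, limma adjusted p = 0.955). Whether the difference at petD itself differs from that at petB was not tested. petN, for a small subunit, read 8.08, 9.16 and 7.92 in WT and 9.83, 10.34 and 8.56 in TOC1-ox (2.29-fold, difference 1.20, limma adjusted p = 0.413), and petD and petN were the only members with a difference above 2-fold. At petN, TOC1-ox replicate 3 lay below WT replicate 2, and replicate 3 was the lowest array of both groups.

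petL, for another small subunit, had the most negative difference of the complex at -0.40, with 9.64, 11.52 and 11.76 in WT and 9.75, 10.48 and 11.48 in TOC1-ox (limma adjusted p = 0.906). Replicate 1 was low there in both groups. petA, for cytochrome f, and petG, for a further small subunit, differed by 0.06 and 0.17.

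The NDH complex, a ferredoxin-dependent relative of respiratory complex I that serves cyclic electron flow, had 10 measured genes. Of these, 0 passed, 6 differences were positive and 4 negative, with a median of 0.09 and a range of -0.17 to 0.59. The median was -0.11 without WT replicate 2 and 0.39 without WT replicate 3. ndhJ, for a subunit of the peripheral arm, gave the upper end with 10.62, 9.61 and 10.97 in WT and 10.75, 10.94 and 11.29 in TOC1-ox (limma adjusted p = 0.573). WT replicate 2 lay apart below the other arrays, and the difference was 0.13 between the arrays numbered 1 and 0.32 between those numbered 3. ndhK, which shares a transcription unit with ndhJ, showed the same low WT replicate 2, with 8.75, 7.55 and 9.09 in WT and 8.69, 8.96 and 9.15 in TOC1-ox.

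ndhH, also for the peripheral arm, gave the lower end of the range, with 8.72, 8.72 and 9.35 in WT and 8.28, 8.34 and 9.65 in TOC1-ox. Its difference was -0.44 and -0.37 between the arrays numbered 1 and 2 but 0.30 between those numbered 3, and it passed among the arrays numbered 1 and 2 only (-0.41, limma adjusted p = 0.032, 0.032 to 1 over all alternatives). ndhI, for an iron-sulfur subunit, read 14.70, 14.60 and 15.01 in WT and 14.70, 14.46 and 14.73 in TOC1-ox (difference -0.14, limma adjusted p = 0.745). ndhF, the dimmest member, read 4.87, 5.26 and 6.46 in WT and 5.36, 6.14 and 5.07 in TOC1-ox, so that replicate 3 was highest in WT and lowest in TOC1-ox.

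The 6 genes of the ATP synthase had a median difference of 0.41, with 5 positive differences, yet 0 passed and WT and TOC1-ox overlapped at each. This was the highest median of the complexes with all arrays, but not with every array left out. Without WT replicate 2 it came to 0.01, where cytochrome b6f (0.25) and photosystem II (0.05) were higher. Without TOC1-ox replicate 3 it came to 0.03, beside 0.03 for cytochrome b6f and 0.04 for NDH. It was 0.73 without WT replicate 3 and 0.66 without TOC1-ox replicate 1. Replicate 3 was the highest array of both groups in all 6. atpH, for the ring subunit of the membrane part, read 10.93, 10.64 and 13.11 in WT and 11.21, 12.18 and 13.57 in TOC1-ox (difference 0.76, interval -1.62 to 3.14, limma adjusted p = 0.818). atpF, for a stalk subunit, had a like spread over the arrays, with 11.57, 11.14 and 13.27 in WT and 11.47, 12.37 and 13.55 in TOC1-ox (difference 0.47). In both, replicate 3 lay between 1.63 and 2.33 above the mean of the other 2 arrays of its group. atpI, for the subunit beside the ring, read 6.93, 7.38 and 7.56 in WT and 7.56, 7.88 and 8.49 in TOC1-ox (difference 0.69, limma adjusted p = 0.352), with the highest WT value level with the lowest of TOC1-ox.

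The catalytic part of the enzyme gave smaller values. atpB, for the beta subunit, read 15.19, 14.63 and 15.26 in WT and 14.92, 14.89 and 15.33 in TOC1-ox (difference 0.02, interval -0.55 to 0.59). atpE, for the epsilon subunit and in the same transcription unit, read 14.77, 14.43 and 14.96 in WT and 14.53, 14.48 and 14.83 in TOC1-ox (difference -0.10). atpA, for the alpha subunit, read 14.00, 13.09 and 14.41 in WT and 14.05, 14.18 and 14.34 in TOC1-ox (difference 0.36), and WT replicate 2 was the low array. Between WT replicate 2 and TOC1-ox replicate 2 the median difference over the 6 genes was 0.80, while it was -0.03 between the arrays numbered 1 and 0.17 between those numbered 3.

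Of the 15 ribosomal protein genes, 0 passed, 6 differences were positive and 9 negative, and the median was -0.04 (-0.13 without WT replicate 2 to 0.11 without WT replicate 3). rpl33, for a protein of the large subunit, came closest to the threshold of all 69 members. It read 13.60, 13.63 and 13.75 in WT and 13.20, 13.22 and 13.35 in TOC1-ox, without overlap and with an SD of 0.08 in both groups. The difference of -0.40 ± 0.07 (standard error, n = 3 each, interval -0.58 to -0.23, 1.32-fold lower) had a limma adjusted p of 0.0667. It passed with a batch term that sets the arrays numbered 3 apart (limma adjusted p = 0.0329), among the arrays numbered 1 and 2 only (0.0253) and without TOC1-ox replicate 3 (0.0268), in a range of 0.00353 to 1 over all alternatives. rps18, its neighbour on the genome and part of the same transcription unit, read 12.45, 12.36 and 12.91 in WT and 12.09, 11.93 and 12.43 in TOC1-ox. The difference of -0.42 at rps18, the most negative of the ribosomal genes, had a limma adjusted p of 0.406, and the groups overlapped at 1 value.

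Positive differences in the ribosomal group were found at rps14 and rpl20. rps14, for a protein of the small subunit and transcribed together with psaA and psaB, read 6.70, 7.63 and 6.49 in WT and 7.67, 8.61 and 7.11 in TOC1-ox (difference 0.85, limma adjusted p = 0.509). Replicate 3 was its lowest array in both groups, opposite to psaA and psaB. rpl20, for another protein of the large subunit, read 8.43, 9.26 and 8.96 in WT and 9.25, 9.85 and 9.65 in TOC1-ox (difference 0.70 ± 0.27, standard error, 1.62-fold, limma adjusted p = 0.301). rps3, for a protein of the small subunit, had no overlap but a difference of only -0.11, with 13.64, 13.54 and 13.68 in WT and 13.54, 13.47 and 13.52 in TOC1-ox. The other ribosomal genes differed by -0.16 (rps19) to 0.44 (rps2), and rpl16 moved with the arrays numbered 3, from 10.56 and 10.86 to 12.47 in WT and from 10.12 and 10.67 to 12.97 in TOC1-ox.

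The RNA polymerase that transcribes much of this genome is built from 4 plastid-encoded subunits, all of them measured. 0 passed, and their median difference was 0.16 (-0.29 without WT replicate 2 to 0.53 without WT replicate 3). rpoB, for the beta subunit, read 6.57, 6.96 and 6.44 in WT and 6.99, 8.02 and 7.95 in TOC1-ox. The groups did not overlap, although TOC1-ox replicate 1 lay just above WT replicate 2, and the difference of 1.00 ± 0.33 (standard error, n = 3 each, 2.00-fold, interval 0.15 to 1.84) had a limma adjusted p of 0.239, with 0.113 to 0.521 over all alternatives. rpoC1 and rpoC2, for the remaining large subunits and in the same transcription unit as rpoB, did not show a difference of that size. rpoC1 read 11.60, 10.65 and 11.76 in WT and 11.15, 10.61 and 11.91 in TOC1-ox (difference -0.12), and rpoC2 read 10.31, 8.97 and 11.70 in WT and 10.21, 10.20 and 11.62 in TOC1-ox (difference 0.35). rpoA, for the alpha subunit, read 13.09, 12.58 and 13.42 in WT and 12.98, 12.87 and 13.16 in TOC1-ox (difference -0.03, limma adjusted p = 0.976).

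**Figure D4:**
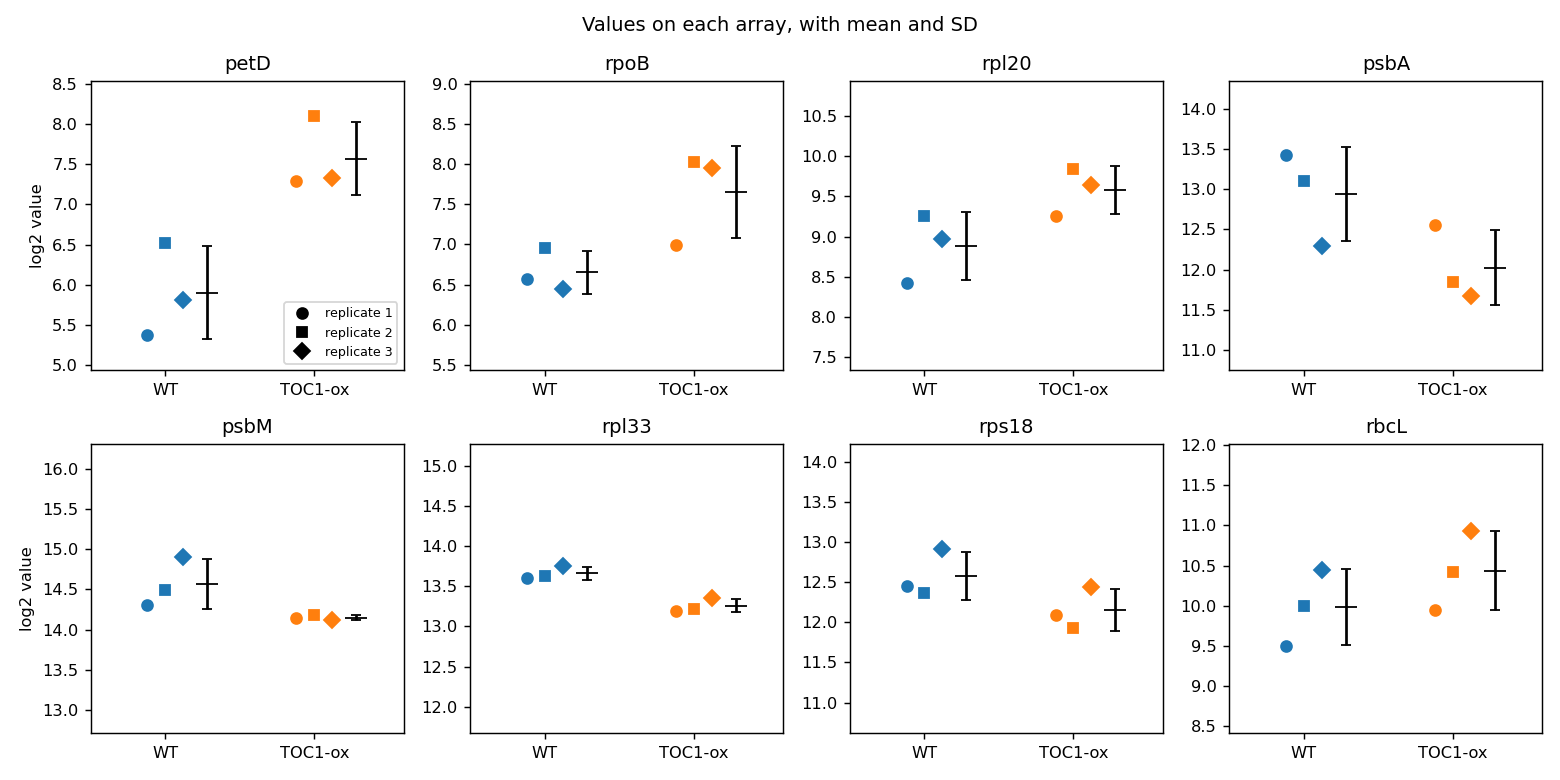
Log2 values of 8 chloroplast genes on each array (circles, squares and diamonds for replicates 1, 2 and 3), with the mean and SD of each group of 3 as black bars. Every panel spans the same number of log2 units. The groups do not overlap at petD, rpoB, psbM and rpl33 and overlap at rpl20, psbA, rps18 and rbcL.

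The remaining 8 genes serve carbon fixation, lipid synthesis, proteolysis, splicing and assembly, and 0 of them passed. Their median difference was 0.11, with -0.24 without WT replicate 2 and 0.57 without WT replicate 3. rbcL, for the large subunit of rubisco, read 9.50, 10.00 and 10.44 in WT and 9.95, 10.43 and 10.93 in TOC1-ox. Its difference of 0.45 was 0.44, 0.43 and 0.49 between the arrays numbered 1, 2 and 3, but the groups overlapped and limma's adjusted p was 0.654. accD, for a subunit of the acetyl-CoA carboxylase that starts fatty acid synthesis, read 9.77, 9.27 and 11.35 in WT and 9.71, 10.32 and 11.39 in TOC1-ox (difference 0.34, interval -1.49 to 2.17). clpP, for a protease subunit, read 12.86, 12.25 and 13.28 in WT and 12.72, 12.52 and 13.08 in TOC1-ox (difference -0.02, interval -0.81 to 0.77).

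The splicing factor gene matK read 13.52, 12.93 and 14.09 in WT and 13.20, 13.16 and 13.80 in TOC1-ox (difference -0.13, limma adjusted p = 0.943). ycf3, for an assembly factor of photosystem I, had the most positive difference of these genes at 0.78, with 9.12, 9.61 and 9.45 in WT and 9.56, 10.22 and 10.76 in TOC1-ox (limma adjusted p = 0.349). TOC1-ox replicate 1 fell between WT values there. Its partner in assembly, ycf4, differed by 0.13, cemA, for a protein of the inner envelope, by 0.09, and ccsA, which serves haem attachment to cytochromes of the c type, by -0.04. Replicate 3 was the highest TOC1-ox array at all 8 genes, and the highest WT array at all but ycf3.

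The shift of the arrays numbered 3 had the same sign in both genotypes at most genes. Taken as replicate 3 minus the mean of replicates 1 and 2, it was positive in both groups at 50 members, against 20.3% of all tested probe sets, negative in both at 9 and of opposite sign at 10. It exceeded 2-fold upward in both groups at 11 members (15.9%), against 0.33% of all tested probe sets: psaA, psbC, petL, atpF, atpH, rps2, rpl16, rpoC2, accD, ycf4 and cemA. The 8 members lowest in replicate 3 of both groups were psbA, psbB, psbL, psbN, psbT, petN, rps14 and rpl36, and 5 of these are photosystem II genes. By complex, the median of the 2 arrays numbered 3 minus the other 4 was highest in photosystem I, at 0.99, and lowest in photosystem II, at 0.13. The remaining medians were 0.73 for the group of other genes, 0.62 for the polymerase, 0.57 for the ATP synthase, 0.52 for NDH, 0.33 for cytochrome b6f and 0.18 for the ribosome.

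Neighbouring genes of a transcription unit often shared this shift and did not always share a difference between genotypes. In the unit from rps2 to atpA, all 5 genes were highest in replicate 3 of both groups, with shifts of 0.55 or more, and their differences between genotypes lay between 0.36 and 0.76. In the unit from psaI to petA, with ycf4 and cemA between them, the shifts were 0.76 to 1.45 and the differences -0.11 to 0.13. In the unit from psbE to psbJ, with psbF and psbL between them, no gene was highest in replicate 3 of both groups, and the differences were 0.03 to 0.22. The unit from psbB to petD spanned shifts of -0.50 to 0.66 and differences of 0.00 (psbH) to 1.67 (petD). In the unit of psaA, psaB and rps14 the shifts ran from -0.86 at rps14 upward to psaA and the differences from -0.30 to 0.85. The units with the most genes, 7 each, were mixed as well. From rps19 to rpoA the shifts ran from -0.31 to 2.17, with 4 genes highest in replicate 3 of both groups. From ndhH to ndhD they ran from -0.34 to 1.01, with 5 such genes.

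**Figure D5:**
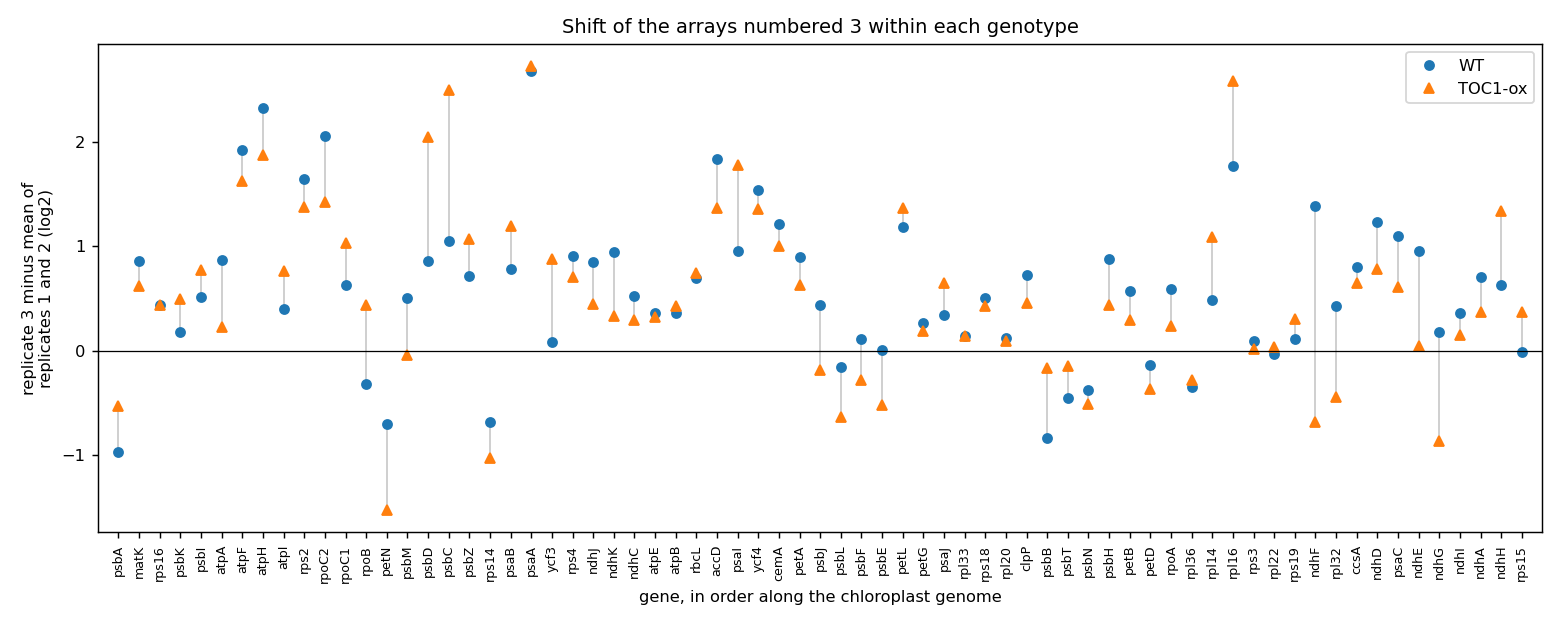
Replicate 3 minus the mean of replicates 1 and 2 (log2, vertical axis) for each of the 69 genes in their order along the chloroplast genome, in WT (circles) and TOC1-ox (triangles), with a grey line joining both values of a gene. The shift is positive in both groups at 50 genes, reaches 2.67 and 2.72 at psaA, and is negative in both at genes such as psbA, petN and rps14.

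The nuclear partners of these genes could be followed only in part. Of 98 nuclear genes on 9 lists (subunits of the same complexes, sigma factors and nuclear-encoded polymerases, polymerase-associated proteins and plastid RNA processing factors), 8 could be measured under a name, and 0 of them passed in the fit in which 1.78% of all probe sets did. NdhL, a nuclear-encoded NDH subunit, read 10.77, 10.29 and 10.19 in WT and 9.69, 9.28 and 9.88 in TOC1-ox, without overlap (difference -0.80 ± 0.23, standard error, limma adjusted p = 0.182; unadjusted p = 0.0168). The other NDH subunit measured, NdhN, differed by -0.11. ATPC1, for the gamma subunit of the ATP synthase, differed by 0.03, PSAE-1 and PSAN of photosystem I by 0.03 and 0.01, and PSBW and PSBY of photosystem II by -0.12 and -0.03. AT5G15700, the nuclear gene of a phage-type polymerase, read 2.47 to 2.71 on all arrays, at the bottom of the scale. The 16 mitochondrial genes had a median difference of 0.05 (range -0.37 to 0.37), and 0 passed. Replicate 3 was the highest array of both groups at 7 of them, against 13.1% of all tested probe sets. It was the lowest of both at 1, against 18.7%. Their median for the arrays numbered 3 minus the others was 0.29, beside 0.49 over the chloroplast genes and -0.03 over all tested probe sets. ccb382 read 4.44, 3.11 and 6.18 in WT and 3.43, 4.48 and 6.93 in TOC1-ox. The shift was thus not limited to chloroplast genes.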

How the data were processed

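Per the submitters' processing notes, the deposited log2 values were made with GCRMA, which corrects background, normalizes by quantiles and summarises probe sets. No versions are stated there. Such values are compressed at the dim end. Per the labels' protocols, biotin-labelled cRNA came from 1 µg of total RNA.

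Groups and replicate numbers came from the sample titles. After 64 control probe sets were left out, the other 22746 entered lmFit and eBayes of limma 3.58.1 (R 4.3.3), two-sided, with group as the only term. Benjamini-Hochberg adjustment ran over all of them. An adjusted p under 0.05 was a call. Errors are SDs over 3 arrays or limma's standard errors. Precision is limited by the number of arrays. Names came from the platform annotation joined to the TAIR10.1 table, and 8 chloroplast probe sets listing several genes were left out. The array has no stated genome build, so no coordinates are given.

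Genes given on every array were, per complex, the strongest signal and the most positive and negative difference, plus psbA, rbcL, psaA, psaB, psbD, rpoB, accD, clpP and matK. Others, rpl33, rpl20 and petN among them, and the transcription units were chosen after their values were seen. The members, lists and tests were chosen with earlier results of these data known. The procedure was tested on simulated data. Alternatives were other normalizations, filters, variance models, array weights, a batch term, a replicate block and left-out arrays. Figures used matplotlib 3.10.9.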

Additional observations from a re-analysis of the deposited data

How the results depend on the processing

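With all arrays, limma called 405 of 22746 probe sets and 0 chloroplast genes. Quantile normalization gave 248 probe sets, a mean of at least 4 or 6 gave 852 and 641, a robust prior 262, array weights 6182, the arrays numbered 1 and 2 only 2201, and centring on the median of the chloroplast genes 703. The last used the same variance for every probe set in limma's fit, unlike the other settings. It moved the median of all probe sets from -0.02 to 0.11 and the share of higher calls from 60.5% to 73.1%. With array weights that share was 46.5%. With 1 array left out the calls ran from 8 (WT replicate 2 left out) to 2955 (TOC1-ox replicate 3 left out); leaving out WT replicate 1 or 3 gave 65 or 188, and TOC1-ox replicate 1 or 2 gave 38 or 20. Chloroplast genes called higher were 1, petD, with a mean of at least 4 or 6 or after centring on their own median, and 4 with array weights (petD, psbN, ndhG and rpl32). Called lower were 4 with array weights (rpl33, psbM, psbA and rps19), 3 with the arrays numbered 1 and 2 only (rpl33, rps19 and ndhH) and 1, rpl33, with the batch term; left-out arrays gave 0 to 1, rpl33 without TOC1-ox replicate 3. Adjusted p under these settings lay between 0.00353 and 0.047, beside background shares of 2.5% to 27.2%, and the cause was not tested. The replicate block gave 0 probe sets and 0 chloroplast genes, with 11 members at an unadjusted p under 0.05 by limma, against 4 without it. The labels do not say that a replicate number marks a shared batch. Deviations of same-numbered arrays from the group means correlated across all probe sets at 0.30, -0.01 and 0.08, and across the 69 chloroplast genes, which are not independent replicates, at 0.56, 0.62 and 0.76. Between arrays of unlike number the correlations ran from -0.19 to 0.11 across all probe sets. Across the chloroplast genes they ran from -0.69 to 0.30, the last for WT replicate 2 with TOC1-ox replicate 1. A gene's deviations cancel out within its group, so these correlations are not separate from each other. A shift shared by both arrays numbered 3 by itself raises the correlations at numbers 1 and 2. It also lowers those between an array numbered 3 and one numbered 1 or 2. Of 152 alternative medians over the members or a complex, 0 moved by more than the SD between arrays, which is wide, and 23 changed sign. The variance models, the batch term, the replicate block and the filter at a mean of 4 could not move a median in this design. Counts over all alternatives therefore say little about how firm a median is. With 1 array left out, 7 of the 9 medians changed sign at least once, all but those of the ATP synthase and cytochrome b6f. Of 476 alternative values of 28 named genes, 421 kept direction and side of the threshold and 8 passed it. Another 47, at 14 genes, changed the sign of a difference that was not called. Both filters, the variance models, the batch term and the replicate block leave a gene's difference unchanged in this design. Under these settings its direction could not change, only its side of the threshold. Each member has 1 probe set and codes for a protein, so averaging probe sets or leaving out RNA genes changes nothing.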

Other observations

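Chloroplast genes of the inverted repeat lie in 2 copies and were left out by the rule, since their probe sets list both copies. Read as probe sets, 0 of 8 passed (limma, against 1.78% of all tested probe sets; 0 at an unadjusted p under 0.05). ycf1, for a large essential protein of the chloroplast, read 10.90, 10.46 and 11.87 in WT and 10.67, 10.91 and 12.14 in TOC1-ox. rps7, for a ribosomal protein, read 12.77, 12.67 and 13.81 in WT and 12.47, 12.38 and 13.99 in TOC1-ox. The 2 probe sets of rps12, a trans-spliced ribosomal gene, differed by 0.40 and 0.21, and both were highest in replicate 3 of each group, as were ycf1 and rps7. rpl2, rpl23 and ndhB, which encode further ribosomal proteins and an NDH subunit, differed by -0.05, 0.02 and 0.26. ycf2 read 6.47, 6.78 and 5.69 in WT and 6.75, 6.78 and 5.75 in TOC1-ox, lowest in replicate 3 of both groups.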
